A study of Homo sapiens with 6 samples.

Results

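The mitochondrial genome transcripts are the RNAs copied from mitochondrial DNA itself. They were taken as every gene of the tables whose symbol starts with MT-, which gave 37 of 58884 genes, namely 13 mRNAs, 2 rRNAs and 22 tRNAs. Nuclear pseudogene copies of these genes were not members and were counted separately. The study asked which RNAs depend on Matrin3 (MATR3), a nuclear matrix protein that binds RNA, in HCT116, an established line of human colorectal cancer cells. The cells received either the control siRNA (siCTRL) or pooled siRNAs directed at Matrin3 (siMatrin3) and were harvested after 48 h, with 3 libraries in each group, called replicates 1, 2 and 3. No other treatment is named for either group, and every value comes from transient transfection of 1 line. The study's methods describe a total RNA library depleted of ribosomal RNA and a directional kit, whereas the labels name a stranded mRNA kit.

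Human mitochondrial DNA is a small circle, and each of its strands is transcribed from end to end as a long precursor. The tRNA genes sit between most of the mRNA and rRNA genes, and cutting out the tRNAs releases the other RNAs. The mRNAs encode core subunits of the respiratory chain complexes I, III and IV and of the ATP synthase (complex V), the rRNAs build the mitochondrial ribosome, and the tRNAs serve its translation. Following common usage, genes annotated on the plus strand are called heavy strand genes here (12 mRNAs, 2 rRNAs and 14 tRNAs) and those on the minus strand light strand genes (MT-ND6 and 8 tRNAs). Positions are those of chromosome M in GENCODE release 44 on hg38.

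The tables summed to between 4556658 and 8400412 estimated counts per library. MATR3, the targeted gene, was at 363, 343 and 330 CPM (counts scaled to the TMM-adjusted library total) in siCTRL replicates 1 to 3 and at 72.4, 67.9 and 71.4 CPM in siMatrin3. This was a log2 fold change of -2.29 ± 0.06 (SE, adjusted p = 7.58e-11, edgeR's quasi-likelihood test). Of the epithelial markers, 6 of 11 were high enough to test and the list summed to 1577 to 1724 CPM in siCTRL and 1800 to 1898 CPM in siMatrin3, with 1 marker at 0 in every library and 2 of the 6 higher past the threshold. Blood markers summed to 0 to 4.94 CPM and fibroblast markers to 19.3 to 23.2 CPM, with 2 and 5 of 8 markers at 0 in every library, and none of the 3 tested markers of these lists passed the threshold.

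Mitochondrial transcripts took 9.89%, 10.2% and 9.03% of the counts in siCTRL replicates 1 to 3 and 10.1%, 11.6% and 9.80% in siMatrin3. The share was higher in siMatrin3 within each of the 3 replicate numbers, by 0.245, 1.43 and 0.775 percentage points, but the groups overlapped. As group means the shares were 9.70% ± 0.604 and 10.5% ± 0.968 (SD, n = 3), so the difference of 0.816 points was smaller than the SD of the siMatrin3 libraries. Without both replicate 2 libraries it was 0.510 points, without siMatrin3 replicate 2 alone 0.266 points and without siCTRL replicate 3 alone 0.479 points. As a share of TPM the difference was 0.381 points, and replicate 1 was then lower in siMatrin3 by -0.0112 points. The 13 mRNAs held 3.93%, 4.62% and 3.84% of counts in siCTRL and 4.21%, 4.87% and 3.85% in siMatrin3, and the 2 rRNAs held 5.93%, 5.53% and 5.17% in siCTRL and 5.90%, 6.72% and 5.92% in siMatrin3. The mRNA share was thus highest in replicate 2 of both groups. All 13 mRNAs had their highest CPM there in each group, and 10 of them in each group had their lowest in replicate 3.

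**Figure D1:**
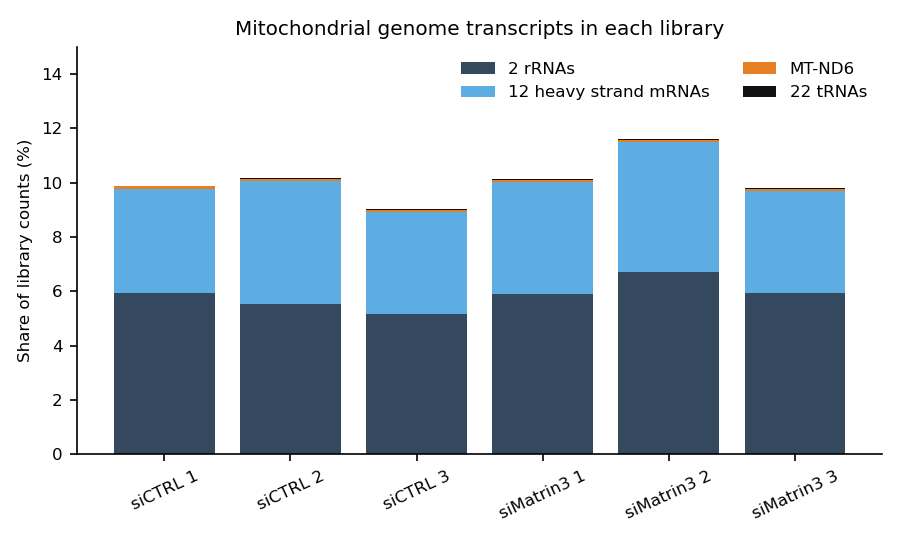
Stacked bars give the percentage of each library's counts (y axis) that fell on mitochondrial rRNAs, heavy strand mRNAs, MT-ND6 and tRNAs, for the 3 siCTRL and 3 siMatrin3 libraries (x axis). The total ran from 9.03% to 11.6%, the rRNAs made up more than the mRNAs in every library, and the tRNAs are too few to see.

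After Matrin3 knockdown, 4 mitochondrial transcripts were higher and none was lower. They were the mRNA MT-CO1, which encodes the catalytic subunit of complex IV, the large ribosomal RNA MT-RNR2 (16S), and the rows of 2 light strand tRNAs, MT-TS1 and MT-TE, which carry serine and glutamate. The rises were small, between 0.32 and 0.39 on the log2 scale. Of the 37 genes, 28 passed the filter on low counts and were tested, and 24 of these did not pass the threshold (adjusted p under 0.05, edgeR's quasi-likelihood test with Benjamini-Hochberg adjustment over 14334 genes). The 4 calls are 14.3% of the tested members, where 10.9% of all tested genes passed in either direction, 5.68% as higher and 5.18% as lower. Across the tested members the median log2 fold change was 0.08, with 19 above and 9 below 0, against a median of -0.0006 over all tested genes. This median depended on single libraries. It was -0.03 without siMatrin3 replicate 2, with 13 of 28 members above 0, and 0.22 without siCTRL replicate 2, with 24 of 28. At an unadjusted p under 0.05 there were 8 members, against 3603 of all tested genes. By strand, 2 of 20 tested heavy strand genes and 2 of 8 light strand genes were higher. With the replicate number as a block these counts were 7 of 20, with 1 lower, and 2 of 8, so the order of the strands turned with the block.

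The replicate numbers were taken to pair the libraries, and with the replicate number as a block 9 members were higher and 1 was lower. Over the 28 tested members, the correlation of deviations between libraries of equal number was highest for replicate 3 (r = 0.564, against -0.016 and 0.199 for replicates 1 and 2). Such an r across members leaves out a shift that all of them share. All 13 mRNAs were highest in replicate 2 of both groups. Over all 14334 genes that fit called 15.8%, with 8.39% higher and 7.37% lower, so its calls rose across the whole table too. The added rises were MT-CO2, MT-CO3, MT-ATP6, MT-ND4 and MT-ND4L, and MT-ND3 was the member that fell. The calls changed when 1 library was left out: 0 were left without siCTRL replicate 3 and 1 without siMatrin3 replicate 1. There were 2 higher without siCTRL replicate 1 or without siMatrin3 replicate 2, and in the latter MT-ND3 also passed as lower. Over all genes the calls fell as well, from 1557 to 707, 939, 1084 and 1256 in these fits, in the order given. MT-CO1, MT-RNR2, MT-TS1 and MT-TE kept log2 fold changes of 0.25 to 0.47 whichever library was left out. No member passed with RSEM's effective lengths as an offset or with limma-trend on log2(TPM + 1), where the calls over all genes also dropped from 1557 to 204 and 149, and DESeq2 called 2 (MT-CO1 and MT-TS1).

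**Figure D2:**
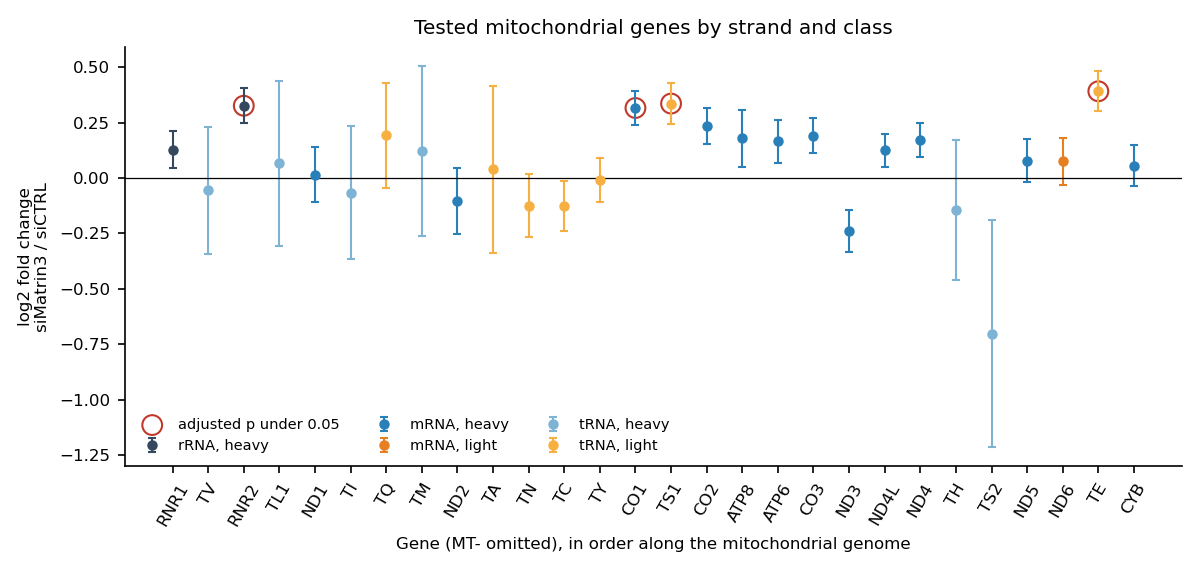
Points give the log2 fold change (y axis, siMatrin3 over siCTRL) and bars its SE for the 28 tested mitochondrial genes in genome order (x axis), coloured by strand and class. Red rings mark the 4 genes past the adjusted p of 0.05, and the low-count tRNAs have the widest bars.

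The cytochrome c oxidase (complex IV) mRNAs all lay above 0. MT-CO1 (ENSG00000198804, chromosome M, 5904 to 7445, plus strand) was at 5732, 6432 and 5300 CPM in siCTRL replicates 1 to 3 and at 7251, 7871 and 6622 CPM in siMatrin3. Every siMatrin3 library lay above every siCTRL library. The log2 fold change was 0.32 ± 0.08 (adjusted p = 0.0188), and within replicate numbers the differences were 0.34, 0.29 and 0.32. MT-CO1 passed in 13 of 21 other settings and in 2 of the 6 that left out 1 library, with an adjusted p up to 0.492 over all of them. MT-CO2, the subunit that receives electrons from cytochrome c, had 3136, 3418 and 2875 CPM in siCTRL and 3668, 4131 and 3287 CPM in siMatrin3. Its groups overlapped, and the log2 fold change of 0.23 did not pass (adjusted p = 0.0847, and 0.00124 with the replicate block). MT-CO3, a core subunit of the same complex, had 4935, 5564 and 4628 CPM in siCTRL and 5662, 6360 and 5254 CPM in siMatrin3. Its differences within replicate numbers ran only from 0.18 to 0.20, while its adjusted p was 0.141 without and 0.00306 with the block.

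The ATP synthase mRNAs MT-ATP8 and MT-ATP6 share 46 bases of sequence, and reads there can be split between them. MT-ATP6, the proton channel subunit, was at 4659, 5404 and 4327 CPM in siCTRL and 5198, 6252 and 4698 CPM in siMatrin3. MT-ATP8, a small membrane subunit, was at 421, 471 and 374 CPM and then 448, 605 and 385 CPM. Both sets of groups overlapped. Their log2 fold changes were 0.17 (adjusted p = 0.317, 0.00982 with the block) and 0.18 (adjusted p = 0.422, 0.0600 with the block).

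The complex I (NADH dehydrogenase) mRNAs were spread on both sides of 0, and none of the 7 passed. MT-ND3, a small membrane subunit, was the lowest, with 749, 923 and 890 CPM in siCTRL and 617, 826 and 732 CPM in siMatrin3. Its groups overlapped because siMatrin3 replicate 2 lay above siCTRL replicate 1, and the log2 fold change was -0.24 ± 0.09 (adjusted p = 0.128, 0.00201 with the block). MT-ND2 had 3639, 5426 and 3975 CPM in siCTRL and 3385, 5097 and 3654 CPM in siMatrin3. It was lower within all 3 replicate numbers, by a log2 difference of -0.12 to -0.09, and did not pass (adjusted p = 0.716, 0.0636 with the block). Replicate 2 of MT-ND2 stood far above the others in both groups. MT-ND1 differed least, with 2574, 3461 and 2624 CPM against 2587, 3570 and 2593 CPM and a log2 fold change of 0.01 (adjusted p = 0.964). MT-ND4 was at 5951, 6485 and 5577 CPM and then 6692, 7530 and 6058 CPM, a log2 fold change of 0.17 (adjusted p = 0.187, 0.00798 with the block). MT-ND4L, which overlaps MT-ND4 by 7 bases, was at 612, 705 and 609 CPM and then 667, 783 and 658 CPM. The MT-ND4L fold change was 0.13 (adjusted p = 0.321, 0.0396 with the block), so the overlapping pair had values close to each other. MT-ND5 was at 3028, 3495 and 2832 CPM in siCTRL and 3232, 3803 and 2850 CPM in siMatrin3, with a log2 fold change of 0.08 (adjusted p = 0.665).

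The only mRNA of the light strand, MT-ND6, also encodes a complex I subunit. It was at 766, 931 and 694 CPM in siCTRL and 808, 985 and 733 CPM in siMatrin3, and its groups overlapped. Its log2 fold change of 0.08 did not pass (adjusted p = 0.718), and its differences within replicate numbers were nearly the same, from 0.0755 to 0.0814 on the log2 scale. The complex III mRNA MT-CYB (cytochrome b) had 2469, 2944 and 2367 CPM and then 2590, 3089 and 2414 CPM, a log2 fold change of 0.06 (adjusted p = 0.760). The signs of MT-ND6 and MT-CYB turned under total-count scaling, limma-trend on TPM and scaling to the 13 mitochondrial mRNAs, so their direction depended on the scaling. Over all 13 mRNAs, 10 were higher in siMatrin3 within each replicate number and 2, MT-ND2 and MT-ND3, were lower within each, all on the TMM scale. The TMM factors were 1.02 to 1.04 in siCTRL and 0.961 to 0.989 in siMatrin3, so this count depends on the scaling. The same count over all genes was not made, and mRNAs cut from shared precursors are not independent.

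**Figure D3:**
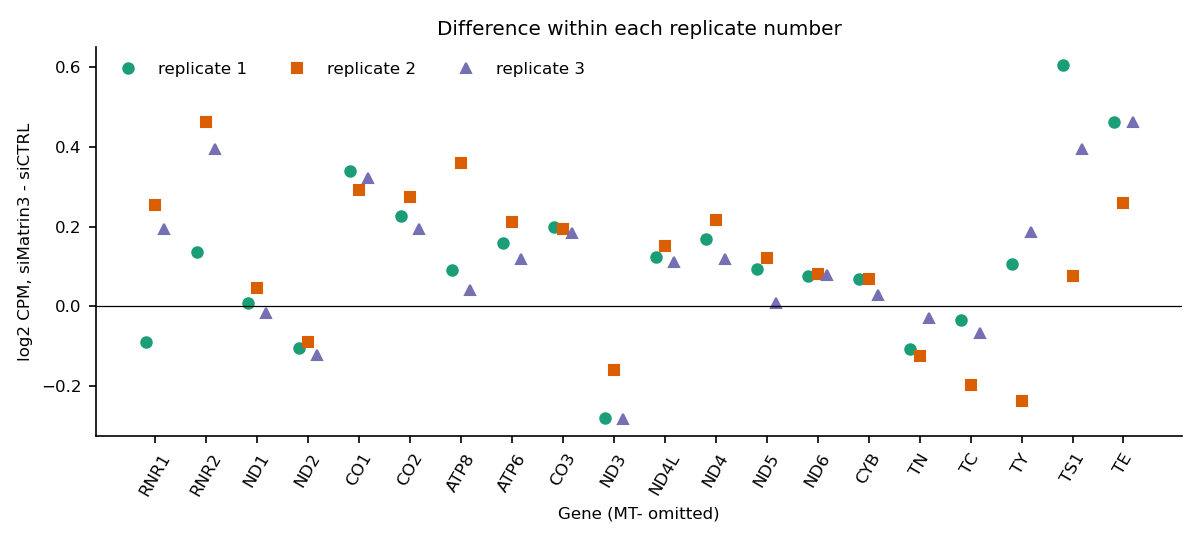
Points give the difference in log2 CPM, siMatrin3 minus siCTRL (y axis), within replicate 1, 2 and 3 for the rRNAs, the mRNAs and the 5 most abundant tRNA rows (x axis). The 3 differences of MT-CO1 lay close together (0.29 to 0.34), those of MT-ATP8 ran from 0.04 to 0.36, and those of MT-RNR1 and MT-ND1 fell on both sides of 0.

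Within the mitochondrial mRNA pool, the shares of the complexes were compared between the groups without a test. The 3 complex IV mRNAs made up 35.7%, 33.8% and 34.5% of the counts of the 13 mRNAs in siCTRL and 38.7%, 36.1% and 37.97% in siMatrin3. The 7 complex I mRNAs made up 44.8%, 46.9% and 46.4% in siCTRL and 42.0%, 44.4% and 43.3% in siMatrin3. In both cases the groups did not overlap, with complex IV higher and complex I lower after knockdown. The complex V pair took 13.1%, 12.9% and 12.7% and then 13.2%, 13.47% and 12.7%, and overlapped. MT-CYB took 6.38%, 6.45% and 6.38% in siCTRL and 6.05%, 6.07% and 6.05% in siMatrin3, a narrow spread within each group and no overlap. These shares sum over members, move against each other by construction and were not tested. The share of each mRNA in this pool does not depend on how libraries are scaled. With scaling to the 13 mRNAs none of the 28 members passed in either direction, while the median of all genes moved to -0.13. That fit called few genes over the whole table, 70 higher and 458 lower, against 814 and 743 in the main fit.

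Single mRNAs differed unequally in these shares. Between group means, complex IV differed by 2.93 points and MT-CO1 alone by 1.93 points. MT-CO1 went from 14.8%, 14.1% and 14.3% of the pool to 16.9%, 15.5% and 16.6%, with no overlap. MT-CO2 lay at 8.11%, 7.49% and 7.75% and then 8.57%, 8.12% and 8.23%, also with no overlap. On the other side, MT-ND3 went from 1.94%, 2.02% and 2.40% to 1.44%, 1.62% and 1.83%. MT-ND5 went from 7.83%, 7.66% and 7.64% to 7.55%, 7.47% and 7.14%. Neither of these 2 overlapped between the groups. How many of all genes do not overlap was not counted. In the fit scaled to this pool, edgeR's quasi-likelihood test passed none of the mRNAs without overlap. The adjusted p was 0.492 for MT-CO1, 0.811 for MT-CO2, 0.138 for MT-ND3, 0.893 for MT-ND5 and 0.849 for MT-CYB. MT-ND2 took 9.41%, 11.9% and 10.7% in siCTRL and 7.91%, 10.01% and 9.15% in siMatrin3, lower within each replicate number although the groups overlapped. MT-ND1 was also lower within each replicate number, with overlapping groups. The fall was not shared by all complex I mRNAs. MT-ND4 took 15.39%, 14.2% and 15.04% in siCTRL and 15.63%, 14.79% and 15.17% in siMatrin3. It was higher within each replicate number, with overlapping groups. MT-ND4L had group means of 1.59% in siCTRL and 1.581% in siMatrin3. The ratio of MT-CO1 to MT-ND2 counts came to 1.58, 1.19 and 1.33 in siCTRL and 2.14, 1.54 and 1.81 in siMatrin3. MT-ND6 relative to the 12 heavy strand mRNAs came to 2.02%, 2.08% and 1.91% in siCTRL and 1.92%, 1.97% and 1.87% in siMatrin3, lower within each replicate number with overlapping groups.

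**Figure D4:**
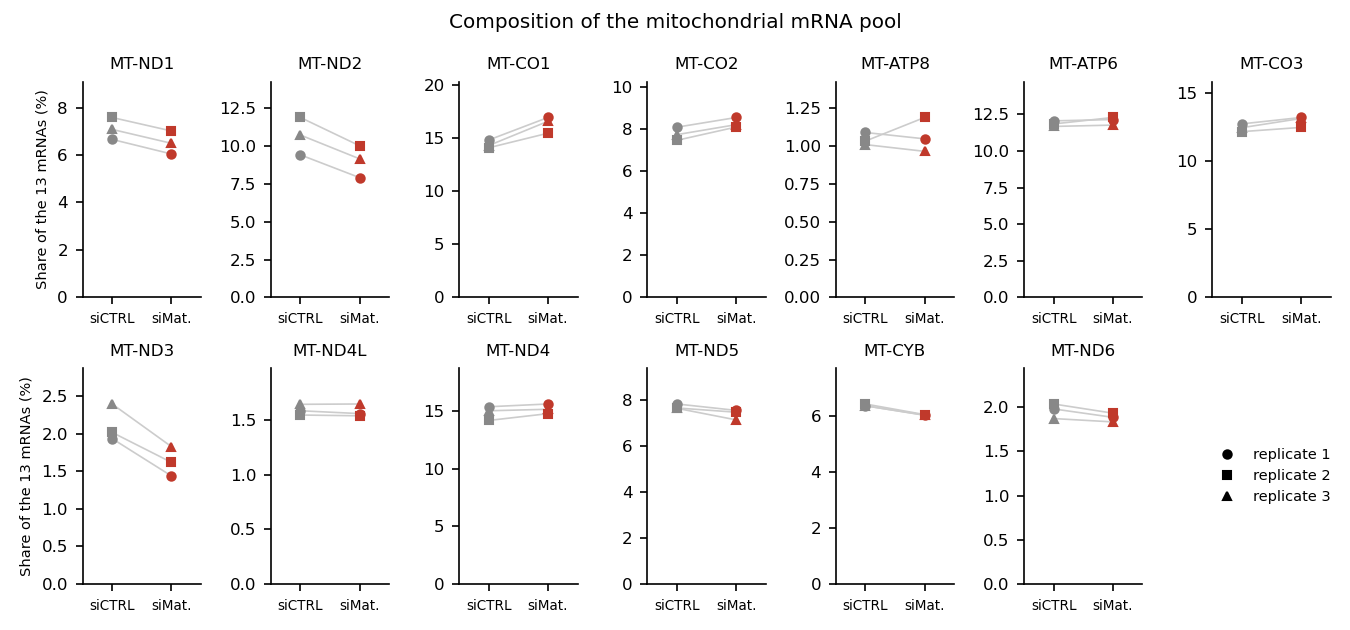
Each panel gives the share of 1 mRNA in the counts of the 13 mitochondrial mRNAs (y axis, percent, from 0) for siCTRL (grey) and siMatrin3 (red), with lines joining equal replicate numbers. MT-CO1 and MT-CO2 lay higher and MT-ND3, MT-ND5 and MT-CYB lower in the siMatrin3 libraries, without overlap between the groups. These shares were not tested.

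Compared per length, in TPM (the deposited length-adjusted share of transcripts), the mRNAs in siCTRL ran from 7786 ± 757 TPM for MT-ATP6 (SD, n = 3) down to 1717 ± 230 TPM for MT-ND6. MT-CO3 followed MT-ATP6 at 7039 ± 542 TPM, within the spread of both. MT-CO2 (5078 TPM), MT-ND4 (4637 TPM), MT-ND2 (4487 TPM) and MT-CO1 (4000 TPM) formed the middle. MT-ND5 at 1815 TPM was next to MT-ND6, and the ratio of MT-ND6 to MT-ND5 stayed between 0.908 and 0.986 in the 6 libraries. The rows of the heavy strand mRNAs thus differed severalfold in TPM. This held in part for overlapping rows too, with MT-ATP8 at 2741 TPM beside MT-ATP6 and MT-ND4L at 2658 TPM beside MT-ND4. These are therefore values of rows, not levels of separate RNA molecules.

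The 2 rRNAs were the most abundant members, and depletion kits for human RNA also target them, so their counts are what depletion left. MT-RNR2 (ENSG00000210082, chromosome M, 1671 to 3229, plus strand) was at 32338, 27797 and 25637 CPM in siCTRL and 35557, 38292 and 33685 CPM in siMatrin3. The groups did not overlap, and the log2 fold change was 0.33 ± 0.08 (adjusted p = 0.0195, 0.000963 with the block). MT-RNR1, the 12S rRNA of the small subunit, was at 25979, 26832 and 24303 CPM in siCTRL and 24412, 32027 and 27776 CPM in siMatrin3. Its groups overlapped, and its log2 fold change of 0.13 missed the threshold (adjusted p = 0.381, 0.155 with the block). Within replicate numbers MT-RNR1 differed by -0.09, 0.26 and 0.19 and MT-RNR2 by 0.14, 0.46 and 0.39, so both were lowest in replicate 1. The ratio of MT-RNR2 to MT-RNR1 counts came to 1.25, 1.04 and 1.06 in siCTRL and 1.46, 1.196 and 1.21 in siMatrin3, higher within each replicate number.

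As a share of counts, residual cytosolic rRNA also differed between the groups, lower in siMatrin3 for replicate 1 and higher for replicates 2 and 3. The rows of 5.8S rRNA held 0.0437%, 0.0390% and 0.0392% of counts in siCTRL and 0.0419%, 0.0503% and 0.0576% in siMatrin3. RNA5-8SN1, RNA5-8SN2 and RNA5-8SN3 carried equal counts, and each passed as higher (log2 fold change 0.38, adjusted p = 0.0307). A further 3 unnamed rows of chromosome 21 lie wholly inside the RefSeq 18S rRNA genes RNA18SN1, RNA18SN2 and RNA18SN3, each with 923 bases. They held 5.69%, 4.18% and 5.08% of counts in siCTRL and 5.51%, 6.68% and 7.27% in siMatrin3. Their counts were equal in each library, and each row passed as higher (log2 fold change 0.46, adjusted p = 0.01735). Within replicate numbers these rows differed by -0.177, 2.50 and 2.19 percentage points of library counts. On that scale the 2 mitochondrial rRNAs together differed by -0.0343, 1.19 and 0.758 points. The log2 differences of MT-RNR1 and MT-RNR2 above are on the TMM scale, so their signs cannot be set beside these. The part of depletion in the MT-RNR2 result was not tested.

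The same 3 rows bear on strand. GENCODE annotates them on the minus strand, opposite to the 5.8S genes of the same rDNA repeats, yet each held a mean of 1.91% of the counts. No source used here states whether counting kept the strands apart. Reads of a light strand row and reads of heavy strand RNA that crosses the same bases therefore cannot be told apart, and the values given for light strand tRNAs and MT-ND6 are values of rows, not of mature light strand RNAs.

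Most tRNA counts fell on few rows. Over the 6 libraries the 22 tRNAs held 11003 counts, and 85.9% of these lay in 5 light strand rows, MT-TS1, MT-TN, MT-TY, MT-TC and MT-TE, which stood at 1317 to 4474 TPM in single libraries. The other 17 rows stood at 0 to 753 TPM. The 13 mRNAs ran from 1435 to 9352 TPM, so the 5 rows reached into the range of the mRNAs and in part lay under it. The sequences of these 5 and of MT-TV, the highest heavy strand row, are shown because the tRNA results rest on them. They read 5′ to 3′ along each tRNA in DNA letters, without the CCA end that is added later, and capitals mark the anticodon. MT-TS1 lies at chrM:7446-7514 and MT-TE at chrM:14674-14742, MT-TN at chrM:5657-5729, MT-TC at chrM:5761-5826 and MT-TY at chrM:5826-5891, all on the minus strand of hg38, and MT-TV lies at chrM:1602-1670 on the plus strand.
MT-TS1: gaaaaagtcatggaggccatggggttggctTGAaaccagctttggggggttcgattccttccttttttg
MT-TE: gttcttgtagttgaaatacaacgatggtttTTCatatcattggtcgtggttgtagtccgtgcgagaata
MT-TN: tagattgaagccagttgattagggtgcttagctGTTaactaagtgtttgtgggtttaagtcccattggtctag
MT-TC: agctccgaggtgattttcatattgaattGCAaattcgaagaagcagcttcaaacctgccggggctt
MT-TY: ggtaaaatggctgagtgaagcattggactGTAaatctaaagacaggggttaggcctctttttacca
MT-TV: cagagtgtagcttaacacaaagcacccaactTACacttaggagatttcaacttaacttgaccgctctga

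A 50-base read can start at only 10 to 26 positions within 1 tRNA of 59 to 75 bases, and full-length tRNAs are hard to copy into such libraries, so the rows are thin. The 8 light strand rows summed to 1013, 2401 and 1266 counts in siCTRL and 1887, 1583 and 1648 in siMatrin3. The 14 heavy strand rows summed to 121, 320 and 169 counts in siCTRL and 184, 237 and 174 in siMatrin3. Light over heavy came to 8.37, 7.503 and 7.49 in siCTRL and 10.3, 6.68 and 9.47 in siMatrin3, with overlapping groups. The light strand rows were also richer in G and C, with a median of 43.0% against 35.8% for the heavy strand rows.

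**Figure D5:**
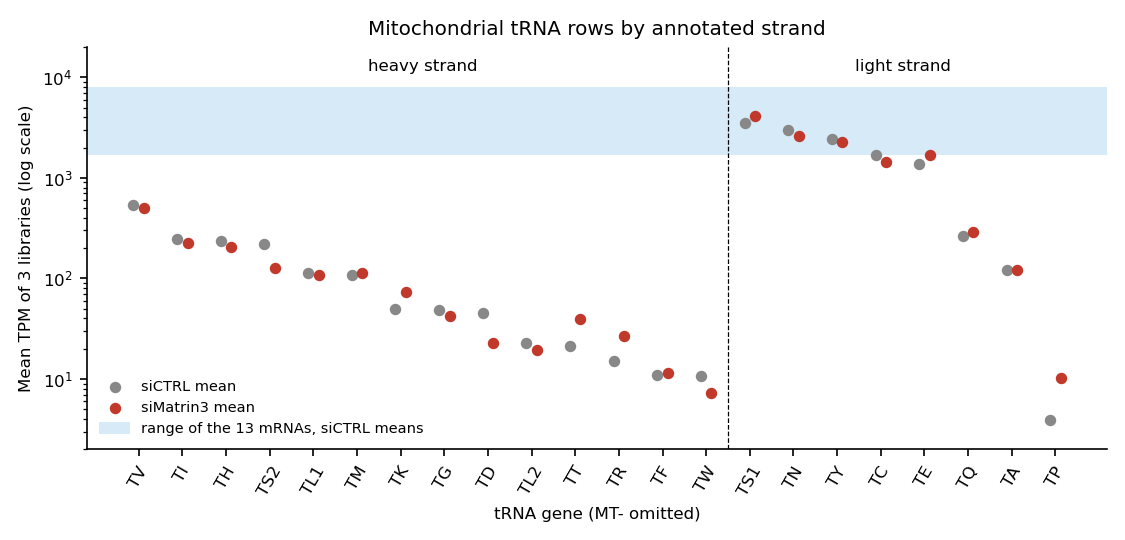
Points give the mean TPM of 3 libraries (y axis, log scale) for each tRNA row in siCTRL (grey) and siMatrin3 (red), heavy strand rows on the left and light strand rows on the right of the dashed line. The shaded band is the range of the siCTRL means of the 13 mRNAs. In siCTRL MT-TS1, MT-TN and MT-TY reach it, while MT-TC at 1683 TPM and MT-TE at 1378 TPM lie under it.

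MT-TS1 (ENSG00000210151) was at 60.6, 78.6 and 64.5 CPM in siCTRL and 92.3, 82.9 and 84.7 CPM in siMatrin3. All siMatrin3 libraries lay above all siCTRL libraries, with a log2 fold change of 0.34 ± 0.09 (adjusted p = 0.0318). MT-TS1 starts at the base that follows MT-CO1, with 0 bases between them, on the opposite strand. In human cells the mature MT-CO1 mRNA is known to keep the antisense of this tRNA at its 3′ end. Per length the MT-TS1 row stood at 0.786 to 0.955 times MT-CO1 in the 6 libraries. Within replicate numbers MT-TS1 differed by 0.61, 0.08 and 0.39 on the log2 scale, a wider range than that of MT-CO1, and the ratio of the rows was higher in replicates 1 and 3 and lower in replicate 2. MT-TS1 lost its call under total-count scaling and in 4 of the 6 settings that left out 1 library.

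MT-TE (ENSG00000210194) was at 26.97, 28.2 and 25.4 CPM in siCTRL and 37.2, 33.8 and 34.9 CPM in siMatrin3. The groups did not overlap, and the log2 fold change of 0.39 ± 0.09 (adjusted p = 0.0140) was the largest rise of a tested member. It kept its call in 14 of 21 other settings, and leaving out 1 library gave log2 fold changes of 0.35 to 0.44 with an adjusted p of 0.0225 to 0.0690. The row lies between MT-ND6, which it touches on the same strand, and MT-CYB, which starts 4 bases further on the other strand. Neither neighbour passed. Per length MT-TE over MT-ND6 came to 0.838, 0.722 and 0.869 in siCTRL and 1.10, 0.817 and 1.14 in siMatrin3, higher within each replicate number with overlapping groups.

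The other abundant light strand rows come from the cluster between MT-ND2 and MT-CO1. MT-TN (asparagine) was at 58.5, 86.3 and 64.8 CPM and then 54.3, 79.0 and 63.5 CPM, highest in replicate 2 like MT-ND2. MT-TC (cysteine) was at 26.5, 32.0 and 25.2 CPM and then 25.9, 27.9 and 24.02 CPM, and MT-TY (tyrosine) at 38.6, 46.8 and 35.8 CPM and then 41.6, 39.7 and 40.7 CPM. All 3 overlapped between groups, with log2 fold changes of -0.12, -0.13 and -0.01 (adjusted p = 0.643, 0.536 and 0.977). MT-TC and MT-TY share 1 base.

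The remaining tested tRNA rows held 65 or more counts in all and did not pass. Among them MT-TV, which lies between the rRNAs with 0 bases to either, was at 6.69, 14.9 and 9.86 CPM and then 7.54, 15.5 and 9.05 CPM. MT-TS2 had the lowest fitted value of all members, a log2 fold change of -0.70 ± 0.51 (adjusted p = 0.434), from 3.24, 2.35 and 0.881 CPM and then 0.960, 2.26 and 0.780 CPM. That SE was more than 5 times the SE of the called members. MT-TQ, MT-TA, MT-TI, MT-TL1, MT-TM and MT-TH lay between -0.14 and 0.19 on the log2 scale, each with an SE of at least 0.24. The 9 tRNAs that were not tested, MT-TF, MT-TW, MT-TD, MT-TK, MT-TG, MT-TR, MT-TL2, MT-TT and MT-TP, held 0 to 13 counts in a library and 5 to 50 over all 6, too few for the test.

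The nuclear copies held 0.0726% to 0.0932% of counts in a library. Of 404 annotated copies, 8 were tested and 1 was higher, MTND1P23 (log2 fold change 1.22, adjusted p = 0.0261), with 5.61, 4.94 and 4.05 CPM in siCTRL and 7.27, 8.71 and 18.1 CPM in siMatrin3. The copies with most counts, MTATP6P1, MTND2P28, MTCO1P12 and MTND1P23, form 1 stretch of chromosome 1 (629062 to 634376) that resembles mitochondrial DNA so closely that reads can be assigned to either. MTATP6P1 was at 511, 579 and 450 CPM and then 558, 674 and 511 CPM, and MTND2P28 at 183, 290 and 208 CPM and then 148, 245 and 174 CPM, each with the replicate order of MT-ATP6 and MT-ND2. Their log2 fold changes of 0.17 and -0.29 did not pass (adjusted p = 0.299 and 0.312). With the block MTATP6P1 passed as higher (0.18, adjusted p = 0.0110) and MTND2P28 as lower (-0.27, adjusted p = 0.00195), which made 2 copies higher and 1 lower. Adding the copies to their mitochondrial genes kept the same 4 calls.

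Mitochondrial RNA is made and handled by nuclear-encoded proteins. A list of 69 nuclear genes held such factors, and also factors of mitochondrial DNA maintenance such as POLG and TWNK and regulators of biogenesis. Of these, 68 were tested. 6 were higher and 1 was lower, 10.3% of the tested list against 10.9% of all tested genes, with a median log2 fold change of 0.08. Among the genes of transcription and DNA maintenance, TOP1MT, the mitochondrial topoisomerase I, went from 28.3, 26.9 and 25.4 CPM to 34.98, 35.9 and 38.7 CPM (log2 fold change 0.44, adjusted p = 0.00706). POLRMT, the mitochondrial RNA polymerase, went from 108, 117 and 106 CPM to 137, 120 and 137 CPM (0.25, adjusted p = 0.0335). Both sets of groups did not overlap, and the other 15 tested genes of transcription and DNA maintenance did not pass. REXO2, an oligoribonuclease that clears short RNA, was higher by 0.41 (adjusted p = 0.0130), and TBRG4, a FASTK family protein, by 0.24 (adjusted p = 0.0449). PTCD1, a pentatricopeptide repeat protein, had a log2 fold change of 0.41 that did not pass (adjusted p = 0.0521, 0.0344 with the block).

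The RNA modification genes on the list held calls in both directions. NSUN2, which methylates cytosines in tRNAs, was higher by 0.28 (adjusted p = 0.0183), and TRIT1, which isopentenylates tRNAs, by 0.36 (adjusted p = 0.0271). METTL15, which methylates the 12S rRNA, went from 42.9, 35.9 and 32.9 CPM to 27.02, 28.9 and 29.2 CPM, a fall of -0.38 on the log2 scale (adjusted p = 0.0308). Its groups did not overlap. None of the 8 tested regulators of mitochondrial biogenesis passed.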

How the data were processed

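Total RNA from siCTRL and siMatrin3 cells was profiled in 3 libraries each. Per the labels, the authors used cutadapt, TopHat and RSEM on hg19, and the study's methods describe single-end reads of 50 cycles. The deposited tables give 1 estimated count per gene and library from RSEM, which need not be whole, and the authors' RSEM runs also gave the TPM and the effective length in bases. The FPKM column was not used. Neither the annotation release nor a strand setting is given in the sources used here. All 37 members have the same length in the tables as in GENCODE 44, whose hg38 positions and tRNA sequences are printed. 58472 of 58884 gene IDs (99.3%) matched it.

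Counts were rounded and filtered by filterByExpr (minimum count 10, minimum total 15), which left 14334 genes. They were scaled by TMM and tested with the quasi-likelihood functions of edgeR 4.0.16 in R 4.3.3, two-sided, with Benjamini-Hochberg adjustment at 0.05. SE is the absolute log2 fold change over the square root of F. The biological coefficient of variation was 6.44%, and within-group pairs of libraries differed by more than counting noise (chi-square over degrees of freedom from 2.62 to 4.36). The methods call the libraries biological triplicates of 1 cell line, and a p-value covers only the spread among them. Equal replicate numbers deviated together from their group means (r = 0.107, 0.104 and 0.157 over genes for numbers 1, 2 and 3), so the numbers, which come from the labels, were taken to pair the libraries. Over the 28 tested members these values were -0.016, 0.199 and 0.564, and siCTRL replicate 1 with siMatrin3 replicate 2 also gave 0.199. The pairing of the members is thus partly an assumption. Alternatives were other scalings and filters, effective lengths as an offset, the block, DESeq2 1.42.0, limma 3.58.1 (limma-trend, pseudocount 1), a threshold of 0.01, leaving out each library, and nuclear copies added. The block with nuclear scaling and the shares without replicate 2 were added after the data were seen.

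Members and lists were chosen with earlier results of these data known. Named genes are MATR3, all members, the 4 nuclear copies with most counts, the list genes past the threshold, the 8 list genes of lowest p, and the rRNA rows. Sums, shares and ratios over members carry no test. The scripts were tested on simulated data.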

Additional observations from a re-analysis of the deposited data

How the results depend on the processing

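MATR3 kept its direction and its call in all 17 alternatives. The count of 1557 genes past the threshold became 204 with effective lengths as an offset, 149 with limma-trend on TPM, 1011 with DESeq2, 589 at an adjusted p of 0.01 and 707 to 1256 when 1 library was left out. Total-count scaling moved the median of all genes by -0.08 and gave 419 higher and 1317 lower, against 814 and 743.

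Of mitochondrial transcripts, 0 were higher with effective lengths, limma-trend, the threshold of 0.01 or scaling to the 13 mRNAs, 2 with DESeq2, and 9 with no filter beyond 1 count or with the replicate block, alone or with nuclear scaling. The last 3 settings and total-count scaling each called 1 lower, MT-ND3. Without 1 library, 0 to 4 were higher and 0 to 1 lower. In the nuclear-encoded list, 7 calls became 0 with effective lengths or limma-trend, 4 with DESeq2, 1 at 0.01 and 1 to 7 without 1 library. The 1 nuclear copy became 3 with no filter or the replicate block, 0 with effective lengths, limma-trend or 0.01, and 0 to 2 without 1 library. With the block the heavy strand calls went from 2 to 7 higher and 1 lower, complex IV from 1 to 3 and the RNA processing genes of the list from 1 to 3. The cause of these differences was not tested.

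Signs turned for members that had not passed. Scaling to the 13 mRNAs gave -0.0593 for MT-ND6, -0.081 for MT-CYB, -0.0617 for MT-ND5, -0.1247 for MT-ND1, -0.0152 for MT-RNR1 and -0.0089 for MT-ND4L. With limma-trend MT-ND6 was -0.0359, MT-CYB -0.0583, MT-ND5 -0.0393 and MT-ND1 -0.1025. With total counts MT-ND6 was -0.0031, MT-CYB -0.0225 and MT-ND1 -0.0658. MT-TY was 0.0088 with no filter, 5e-04 with DESeq2 and 0.0035 or 0.0039 with the block. Without 1 library, MT-ND6 ran from -0.0532 to 0.2065, MT-CYB from -0.0534 to 0.1602, MT-ND2 from -0.3067 to 0.0894, MT-ND5 from -0.0383 to 0.1713, MT-ND1 from -0.1585 to 0.1681, MT-TN from -0.2764 to 0.0796, MT-TC from -0.1966 to 0.0061, MT-TY from -0.0899 to 0.1352 and MT-ATP8 from -0.022 to 0.3113. The mRNAs held 1952 to 55177 counts per library, the 5 abundant tRNA rows 123 to 734, so depth limits the tRNAs first.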
